A study of Mus musculus with 2 samples.

Results

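The genes described here are 8 genes that mouse monocytes express, listed together as genes lost when monocytes become macrophages: Ly6c1, Ly6c2, Plac8, F13a1, Vcan, S100a4, Ace and Treml4. They were found by symbol in a table of 15576 genes, where each had 1 row. Messenger RNA had been sequenced from wild-type mouse bone marrow-derived macrophages (BMDMs), cells grown in culture from marrow progenitors and labelled as macrophages of bone marrow origin. The DCA group was 1 library of cells exposed for 24 h to deoxycholic acid at 100 µM, which gut bacteria form from a primary bile acid, and the NC group was 1 library of cells without it. The sources used here name no strain, age or vehicle, nor is it clear whether collection followed the treatment directly or a day later. The comparison asks how transcript levels differ in these macrophages after exposure to the bile acid. Each group had a single library, so nothing was tested statistically and the variation from culture to culture is unknown for every difference below. In bulk RNA, more or fewer cells of a type and more or less RNA per cell cannot be told apart.

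Monocytes leave the marrow as classical cells, which carry much Ly6C on their surface and enter inflamed tissue, where they can become macrophages. In the blood some turn into non-classical cells, which carry little Ly6C and patrol the vessel wall. Ly6c2, Plac8, F13a1, Vcan and S100a4 are abundant in classical monocytes, whereas Ace and Treml4 mark the non-classical cells. Ly6c1 is grouped with the classical genes here as the close copy of Ly6c2. A BMDM culture starts from progenitors that pass through a monocyte stage under the growth factor M-CSF, so it can still hold transcripts of that stage. The series holds no monocyte library and no time course, so the decline during maturation itself was not measured.

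The 8 genes did not all differ in the same direction. Ly6c1, Ly6c2, Plac8 and F13a1, all grouped here with the genes of classical monocytes, were between 1.098 and 1.22 times as high in DCA as in NC. The other genes of that group, Vcan and S100a4, had ratios of 0.955 and 0.999. Of the non-classical genes, Treml4 had a ratio of 1.03 and Ace, which rested on few reads, one of 0.731. Ratios are DCA over NC, from whole reads rebuilt from the deposited FPKM, a read density scaled for gene length and library size, and scaled to read totals, of which that of NC was 4.66% larger (about 56570600 reads in DCA and 59205400 in NC, rebuilt from the FPKM). Their 95% intervals are exact Clopper-Pearson intervals, which cover counting error only and compare 2 libraries, not 2 conditions.

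Differences were also taken in log2(FPKM + 1), a scale that shrinks the ratios of weakly expressed genes, and set against a limit of 1.2-fold where the mean FPKM reached 1. Genes that passed this filter are called tested below, without a statistical test, and they include 7 of the 8 genes but not Ace. Plac8 was the 1 gene at least 1.2-fold higher in DCA, against 2.11% of the 9656 tested genes, and 0 of 7 were at least 1.2-fold lower, against 0.715% of them. Over all tested genes this gave 204 higher and 69 lower, and 728 and 488 after each library was rescaled to a sum of 1e6, which also lets more genes through the filter. The counting interval of the ratio lay above 1 for 4 of the 7, Ly6c1, Ly6c2, Plac8 and F13a1, against 25.7% of 9644 tested genes with rebuilt reads. It lay below 1 for 0 of the 7, against 20% of them. Ly6c1 and Ly6c2 are close copies, so these 4 are not all separate. The median difference of the 7 was 0.13 (log2), beside 0.0067 for all tested genes, and 5 of the 7 lay above 0, beside 53.5% of all. That median depended on the setting and on which genes passed the filter. With pseudocount 5 it was 0.066 for the same 7 genes. It was 0.072 after rescaling and 0.075 without a filter, where Ace was included as well. Where the mean FPKM had to reach 5 it was 0.185, with only S100a4, Ly6c2, Plac8 and F13a1 left. With pseudocount 5 Plac8 no longer reached 1.2-fold.

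**Figure D1:**
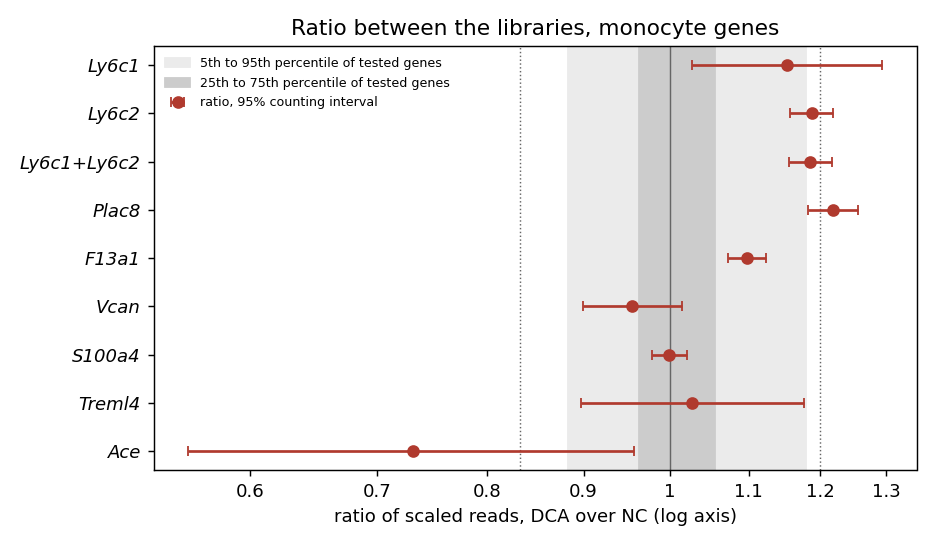
Ratio of scaled reads, DCA over NC, for each of the 8 genes and for Ly6c1 and Ly6c2 together (points, log axis), with 95% counting intervals as bars. Grey bands give the 25th to 75th and the 5th to 95th percentile of the FPKM ratio of tested genes, and dotted lines mark 1.2-fold. The intervals of Ly6c1, Ly6c2, Plac8 and F13a1 lie above 1, that of Ace lies below 1, and those of Vcan, S100a4 and Treml4 include 1.

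Ly6c1 and Ly6c2 encode the Ly6C antigens, small proteins held on the cell surface by a lipid anchor, and their antibody stain is what defines classical and non-classical monocytes in the mouse. The genes are close copies on chromosome 15. Their coding sequences, taken from the GENCODE vM21 transcripts Ly6c1-201 and Ly6c2-201, have 396 bases each and are 97.7% identical, with 9 bases that differ. The first 300 bases of each are shown because they hold most of the coding differences, with the 7 differing bases of that stretch in capitals.
Ly6c1: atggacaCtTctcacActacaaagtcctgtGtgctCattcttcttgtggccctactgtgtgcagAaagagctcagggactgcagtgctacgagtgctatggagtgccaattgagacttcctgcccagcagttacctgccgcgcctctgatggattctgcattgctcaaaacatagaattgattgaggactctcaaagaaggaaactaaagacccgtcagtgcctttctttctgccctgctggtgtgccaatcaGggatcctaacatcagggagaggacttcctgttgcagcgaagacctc
Ly6c2: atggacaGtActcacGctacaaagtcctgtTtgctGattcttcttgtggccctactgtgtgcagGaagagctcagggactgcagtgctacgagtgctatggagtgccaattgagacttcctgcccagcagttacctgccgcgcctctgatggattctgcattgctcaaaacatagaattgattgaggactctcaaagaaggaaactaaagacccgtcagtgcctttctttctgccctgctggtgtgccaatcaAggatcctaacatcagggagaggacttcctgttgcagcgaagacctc

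Counted from 1 at the A of the start codon, with the Ly6c1 base first, the differences are C8G, T10A, A16G, G31T, C36G, A65G, G254A, T327C and G376A. They change 7 of 131 amino acids. From base 66 to base 253 the coding sequences are identical for 188 bases, so a read within that stretch names neither gene. Over all annotated transcripts, 21.5% of the 50-base stretches of Ly6c1 also occur in Ly6c2, and 9.06% of its 100-base stretches. For Ly6c2 the shares found in Ly6c1 are 13.9% and 5.81%. The related Ly6a shares up to 69 stretches of 50 bases with a transcript of Ly6c1. Neither the read length nor the treatment of reads that match several genes is stated in the sources used here, so the division of reads between the copies is uncertain.

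**Figure D2:**
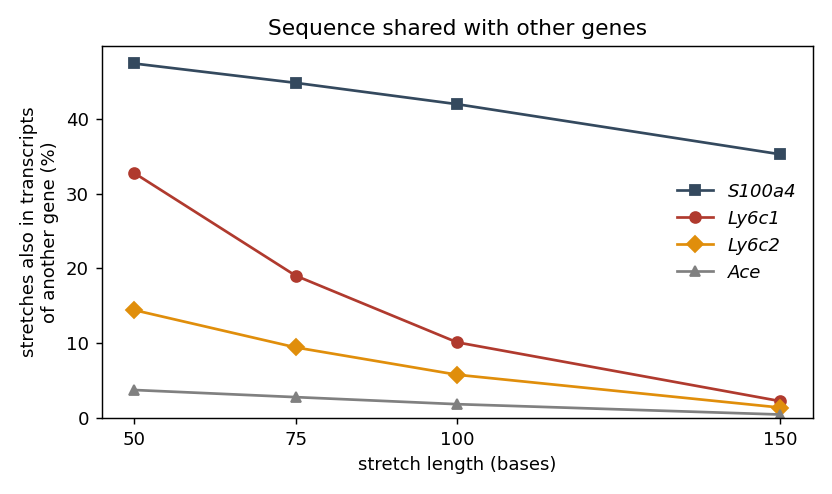
Share of the distinct stretches of a gene's annotated transcripts that also occur, on either strand, in transcripts of another gene (vertical axis, %), by stretch length in bases (horizontal axis). For Ly6c1 it goes from 32.8% at 50 bases to 2.29% at 150 bases, whereas for S100a4, which overlaps another annotated gene, it is still 35.3% at 150 bases.

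Ly6c2 (ENSMUSG00000022584, GRCm38, minus strand of chromosome 15 from 75108158 to 75111970) stood at 44.4 FPKM after DCA against 37.4 for NC, with 11754 and 10357 reads behind these values. Its ratio was 1.19 (95% interval 1.16 to 1.22), and 243 of the 9656 tested genes had a higher difference on the log2(FPKM + 1) scale, where its own was 0.24, just under the limit of 0.26. Ly6c1 (ENSMUSG00000079018, minus strand of chromosome 15 from 75044018 to 75048830) stood at 2.53 FPKM after DCA against 2.20 for NC, with 622 and 565 reads behind these values. Its ratio was 1.15 (1.03 to 1.29), an interval that holds the whole interval of Ly6c2, so a difference between the copies was not detectable at this depth. Taken as 1 gene, the copies took 12376 reads after DCA against 10922 for NC, giving 1.19-fold (1.16 to 1.22), a value that does not depend on how reads were divided between them, though reads left out as ambiguous would be missing from it. Ly6c1 gave 5.03% of these reads in DCA (95% Clopper-Pearson interval 4.65 to 5.43) and 5.17% in NC (4.77 to 5.61), so nearly all of the signal was assigned to Ly6c2 in both libraries.

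Relatives in the Ly6 family are small surface or secreted proteins too. Of 15 listed relatives 10 had a value and 5 passed the filter. All 5 lay above 0 (53.5% of all tested genes did), with a median ratio of 1.22, and 2 were at least 1.2-fold higher (2.11% of all). These were Ly6g, the granulocyte antigen, at 1.39 (1.11 to 1.74) from 184 and 139 reads, and Ly6d, a marker of lymphoid and plasmacytoid cells, at 1.22 (1.17 to 1.28). Ly6e, which many cell types express, was at 1.11 (1.09 to 1.12). Ly6a, the stem cell antigen Sca-1, had the same ratio as Ly6d, 1.22 (1.15 to 1.295), and missed 1.2-fold only on the log2(FPKM + 1) scale. The median difference of the family, 0.26, was 0.14 with pseudocount 5 and 0.14 without a filter.

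Plac8 encodes a small cysteine-rich protein of monocytes, granulocytes and lymphoid cells. The gene (ENSMUSG00000029322, minus strand of chromosome 5 from 100553725 to 100572245) stood at 52.4 FPKM after DCA against 42.9 for NC, with 9121 and 7829 reads behind these values. Its ratio of 1.22 (1.18 to 1.26) was the highest of the 8 genes, although its interval overlaps those of Ly6c1 and Ly6c2, and 173 tested genes had a higher difference. Its transcripts share no stretch of 50 bases with another annotated gene, so its reads are not in doubt in that way.

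F13a1 encodes the catalytic A subunit of coagulation factor XIII, a transglutaminase that cross-links fibrin, and is expressed by monocytes, some macrophages and megakaryocytes. The gene (ENSMUSG00000039109, minus strand of chromosome 13 from 36867178 to 37050244) stood at 20.2 FPKM after DCA against 18.4 for NC. Its ratio was 1.098 (1.07 to 1.12), with 978 tested genes above it in difference, and its interval lies below those of Ly6c2 and Plac8. With the annotated length its reads came out as 15318.8 and 14606.3, which are not whole, so they are approximate (a length 8 bases longer would make them 15328 and 14615), while the FPKM ratio does not depend on the length. Of its 6739 exonic bases, 74 (1.098%) overlap the antisense gene Gm30489, which has no value here. Platelet genes, from cells that also make F13a1, did not share 1 direction. Pf4 stood at 33.9 FPKM after DCA against 39.6 for NC, which is 0.857-fold (0.813 to 0.902). Ppbp was at 0.955 (0.743 to 1.23), and Treml1, which lay under the filter, at 1.53 (1.19 to 1.97) from 156 and 107 reads.

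Vcan encodes versican, a large chondroitin sulfate proteoglycan that binds hyaluronan in the extracellular matrix. The gene (ENSMUSG00000021614, minus strand of chromosome 13 from 89655312 to 89742509) stood at 1.03 FPKM after DCA against 1.08 for NC, just above the filter, with 2047 and 2243 reads behind these values. The ratio of 0.955 had an interval of 0.899 to 1.01, which includes equality. S100a4 encodes a calcium-binding protein of motile cells that macrophages and fibroblasts also make. It (ENSMUSG00000001020, plus strand of chromosome 3 from 90603771 to 90606045) stood at 344.9 FPKM after DCA against 345.2 for NC, with 16270 and 17044 reads behind these values. Its ratio of 0.999 (0.978 to 1.02) is the most precise near-equality among the 8 genes, and its interval lies below those of Ly6c1, Ly6c2, Plac8 and F13a1. Of its 584 exonic bases, 302 (51.7%) are shared with exons of Gm42674, a protein-coding gene on the same strand that has no value here, so reads of that part may have been counted elsewhere or left out in both libraries.

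Treml4 encodes a receptor of the TREM family that binds dying cells and is found on non-classical monocytes and some splenic macrophages. The gene (ENSMUSG00000051682, plus strand of chromosome 17 from 48264295 to 48275360) stood at 1.36 FPKM after DCA against 1.33 for NC, with 430 and 438 reads behind these values. Its ratio was 1.03 (0.897 to 1.18), which includes equality and reaches 1.18, so a smaller difference was not detectable at this depth. Ace encodes angiotensin-converting enzyme, a membrane peptidase that endothelial cells and non-classical monocytes carry. The gene (ENSMUSG00000020681, plus strand of chromosome 11 from 105967945 to 105989964) stood at 0.144 FPKM after DCA against 0.197 for NC, with 95 and 136 reads behind these values. Its ratio was 0.731 (0.556 to 0.957), the 1 interval of the 8 below 1, but the gene lay under the filter and 295 of its 5287 exonic bases overlap the antisense gene Gm11651. The endothelial genes Cdh5 and Kdr were also lower, at 0.676 (0.535 to 0.852), from 124 and 192 reads, and 0.787 (0.716 to 0.865). Cdh5 also lay under the filter. Both were chosen after their values were seen, while Pecam1 and Vwf of the same list were at 1.08 (1.02 to 1.14) and 1.096 (1.05 to 1.14), and whether endothelial cells bear on the Ace value was not tested.

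Levels of different genes can be compared only per length, and the deposited FPKM divides by a length that grows with the number of annotated transcripts. Reads were therefore divided by the union of a gene's exons, in reads per kilobase of exon for each 1e6 reads. On this scale S100a4 was by far the most abundant, at 492.5 in DCA and 492.9 in NC. Plac8 followed at 101.3 and 83.1, Ly6c2 at 75.8 and 63.8, and F13a1 at 40.2 and 36.6. A wide gap separated these from Ly6c1 at 6.56 and 5.69, Treml4 at 3.81 and 3.70, Vcan at 2.502 and 2.62 and Ace at 0.318 and 0.434. The order was the same in both libraries, and the values of neighbouring genes in it did not overlap between libraries. With the longest protein-coding transcript as the length, an alternative chosen after seeing the data, Ly6c2 stood above Plac8, at 252.8 and 212.8 against 131.7 and 108.0. The length of Ly6c2 was then 822 bases in place of 2740, and that of Plac8 1224 in place of 1592.

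**Figure D3:**
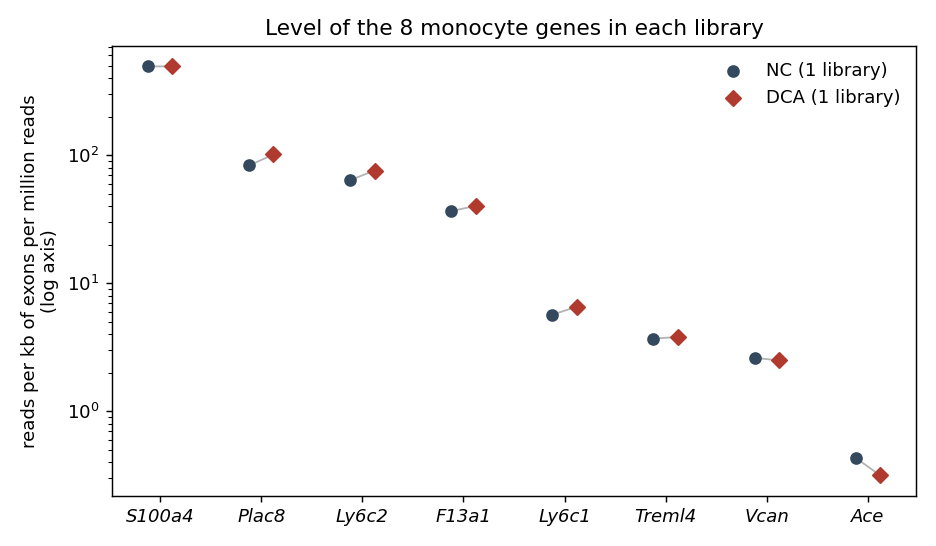
Level of each gene in NC (circles) and DCA (diamonds), in reads per kilobase of the union of exons for each 1e6 reads, on a log axis, with 1 library per group and no error bars. Levels run from 492.9 for S100a4 to 0.434 for Ace in NC, and the DCA diamond lies above the NC circle for Plac8, Ly6c2, F13a1, Ly6c1 and, by less, Treml4.

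Promoters are shown for Plac8, Ly6c2 and F13a1, the 3 genes with the most reads among those whose intervals lay above 1. They were taken from RefSeq (GRCm38.p6), which gave 13 windows for the 8 genes, each of 300 bases around an annotated start and mostly upstream of it. Each of the 3 genes has a further window, and the one that lies farthest upstream is printed. The motifs searched on both strands were GAGGAAG, a core of the sites of PU.1, the master transcription factor of myeloid cells, and CACCC, a box that Krüppel-like factors bind. Matches of the motifs can share end bases, and all matches are in capitals.
Plac8, chr5:100572156-100572455, minus strand: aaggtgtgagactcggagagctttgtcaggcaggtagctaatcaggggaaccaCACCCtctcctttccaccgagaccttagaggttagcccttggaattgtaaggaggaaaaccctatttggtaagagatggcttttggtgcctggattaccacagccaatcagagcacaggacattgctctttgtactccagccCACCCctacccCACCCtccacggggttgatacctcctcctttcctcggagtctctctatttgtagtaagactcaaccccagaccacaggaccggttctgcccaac
Ly6c2, chr15:75111922-75112221, minus strand: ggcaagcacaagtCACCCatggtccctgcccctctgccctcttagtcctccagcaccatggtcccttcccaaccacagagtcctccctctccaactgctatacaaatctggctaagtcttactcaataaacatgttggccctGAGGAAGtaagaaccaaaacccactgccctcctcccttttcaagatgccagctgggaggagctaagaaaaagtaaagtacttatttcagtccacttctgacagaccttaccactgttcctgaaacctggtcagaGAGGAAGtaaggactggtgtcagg
F13a1, chr13:37050195-37050494, minus strand: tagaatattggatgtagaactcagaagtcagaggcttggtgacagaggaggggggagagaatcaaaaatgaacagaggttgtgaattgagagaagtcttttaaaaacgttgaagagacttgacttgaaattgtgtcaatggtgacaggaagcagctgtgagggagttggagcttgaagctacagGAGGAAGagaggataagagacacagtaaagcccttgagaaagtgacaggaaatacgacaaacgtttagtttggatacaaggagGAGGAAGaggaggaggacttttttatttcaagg

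GAGGAAG was found in at least 1 window of 5 of the 8 genes, Ly6c1, Ly6c2, F13a1, S100a4 and Ace, and in 15.4% of all 27025 genes with a window (13.6% of 32851 windows). Plac8, Vcan and Treml4 had none in these windows. CACCC was found for 8 of 8 genes, but also for 59.8% of all genes (57.5% of windows). For F13a1 its 2 matches lie in the window that is not printed. Windows of 1 gene can overlap, and a match is a description of letters, not a site.

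Other classical monocyte genes were mostly higher in DCA too. Of 21 listed, 20 were tested, of which 18 lay above 0, with a median ratio of 1.07 and an interquartile range of 1.03 to 1.18. At least 1.2-fold higher were 4, and 0 were lower. Ccr2, the chemokine receptor by which monocytes leave the marrow, stood at 36.5 FPKM after DCA against 29.4 for NC, which is 1.24-fold (1.22 to 1.26). Mcemp1, a membrane protein of myeloid cells, had a ratio of 1.25 (1.203 to 1.304). Cd14, the lipopolysaccharide co-receptor that macrophages keep, was at 0.940 (0.913 to 0.968). The list thus held genes near 1.2 and genes near 1, as the 8 genes did.

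Other non-classical monocyte genes were mixed. Of 15 tested genes 11 lay above 0, with a median ratio of 1.07 and a range of 0.882 to 1.76, and 3 were at least 1.2-fold higher and 0 lower. Adgre4, an adhesion receptor also known as F4/80-like receptor, stood at 2.46 FPKM after DCA against 1.40 for NC, which is 1.76-fold (1.52 to 2.04), and Ear2, an eosinophil-associated ribonuclease, was at 1.32 (1.15 to 1.53). Nr4a1, the nuclear receptor that non-classical monocytes require, was at 0.9195 (0.841 to 1.01), and Cx3cr1, their chemokine receptor, at 1.004 (0.976 to 1.03).

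Macrophage maturation genes lay on the other side. All 19 listed genes passed the filter, and 15 of them were lower in DCA, with a median ratio of 0.953. Passing the filter does not by itself bear out the labelled cell type, since all 18 neutrophil markers passed it too. The largest levels were those of the protease gene Ctsd, at 0.953 (0.949 to 0.957), and of Gpnmb, a lysosome-associated glycoprotein, at 0.9501 (0.946 to 0.954). Adgre1, which encodes F4/80, was at 0.938 (0.922 to 0.953) and Csf1r, the receptor of M-CSF, at 0.977 (0.967 to 0.988). The highest ratio of the list was that of Pltp, a phospholipid transfer protein, at 1.204 (1.135 to 1.277). Cd81, a tetraspanin, was also above 1 at 1.042 (1.003 to 1.084). Exons of 5 of the 19 overlap other genes, among them Ctsd and Csf1r as well as Pltp and Cd81. On the log2(FPKM + 1) scale 0 of the 19 reached 1.2-fold in either direction.

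Transcription factors that direct monocyte fate had a median ratio of 1.004 over 14 tested genes, 7 above and 7 below 0, and their median difference of 0.0069 was -0.0072 after rescaling and 0.11 without genes whose exons overlap. Klf4, which monocyte development requires, stood at 4.12 FPKM after DCA against 1.26 for NC, which is 3.26-fold (2.87 to 3.70). Klf2 was at 1.32 (1.25 to 1.39) and Irf8, which directs monocyte over neutrophil fate, at 1.08 (1.06 to 1.105). Spi1, which encodes PU.1, was at 1.02 (0.999 to 1.05), an interval that includes equality.

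**Figure D4:**
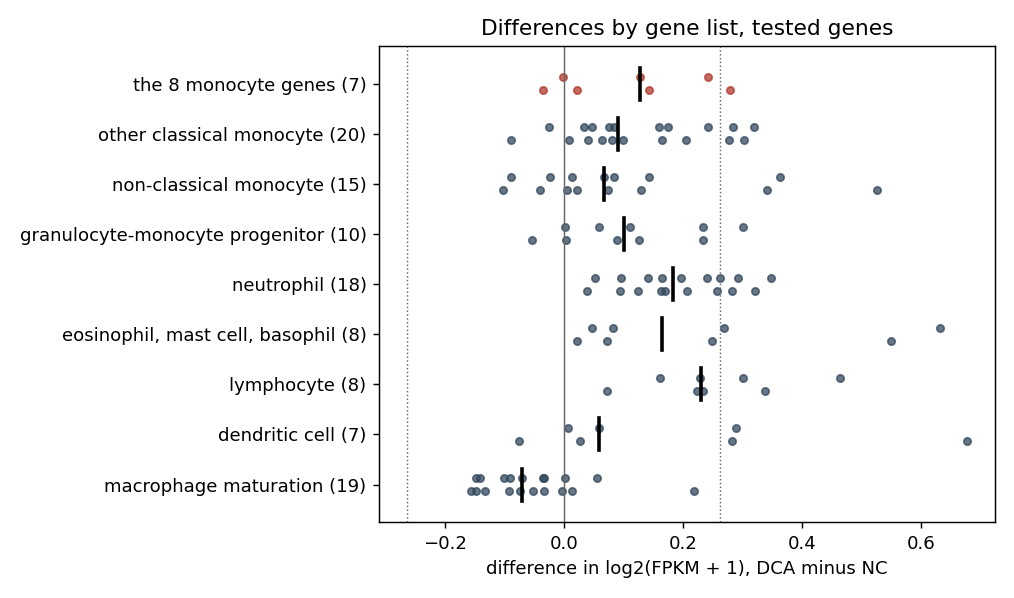
Difference in log2(FPKM + 1), DCA minus NC, of each tested gene (points) in the 8 monocyte genes and in 8 lists of other genes, with the number tested in brackets, the median as a black bar and dotted lines at 1.2-fold. The medians of the monocyte genes (0.13), neutrophil markers (0.18) and lymphocyte markers (0.23) lie above 0, and that of macrophage maturation genes (-0.07) below.

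Markers of several other marrow cells were mostly higher beside the classical monocyte genes. All 18 neutrophil markers were tested and lay above 0, with a median ratio of 1.14 and 5 at least 1.2-fold higher, and their summed level was 6146 reads for each 1e6 reads in DCA and 5342 in NC, against 984 and 899 for the 8 monocyte genes. Retnlg, a secreted protein of neutrophils, was at 1.27 (1.25 to 1.301). Of 14 lymphocyte markers 8 were tested and 8 lay above 0, with a median ratio of 1.21 and summed levels of 727 and 601, and Blk, a B-cell kinase, was at 1.42 (1.33 to 1.51). Progenitor genes of granulocytes and monocytes numbered 9 above 0 among 10 tested, their median ratio being 1.095 and their summed levels 934 and 825, and the granule protease gene Ctsg was at 1.24 (1.18 to 1.305).

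Eosinophil, mast cell and basophil genes lay above 0 in 8 of 8 tested of 9, with a median ratio of 1.16 and summed levels of 192 and 149, led by Epx, eosinophil peroxidase, at 1.90 (1.65 to 2.19) and Prg2 at 1.47 (1.41 to 1.54). Dendritic cell genes lay above 0 in 6 of 7 tested of 10, with a median ratio of 1.05 and summed levels of 512 and 460, led by Ccr7 at 1.68 (1.54 to 1.83). Among the settings tried, the median difference of the eosinophil, mast cell and basophil list ranged from 0.083 to 0.31. That of dendritic cell genes ranged from 0.032 to 0.17, and that of the progenitor genes from 0.059 to 0.18. Megakaryocyte and platelet genes had 2 tested of 8, both below 0, with summed levels of 62.1 and 69.7. Their median difference of -0.13 was 0.00099 once reads were divided by the union of exons. That setting let more genes of the list through the filter. Endothelial and stromal genes had 3 tested of 15, with summed levels of 148 and 141, and Dcn and Pdgfra were listed at 0 in both libraries. Macrophage maturation genes summed to 24020 reads for each 1e6 reads in DCA and 25147 in NC. Ly6C and Plac8 are made by some of these cells too, and the part of these cells in the values of the 8 genes was not tested.

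The gene families and pathways around S100a4, Treml4, Ace, F13a1 and Vcan showed no common direction. Of the S100 relatives, 7 of 13 were tested and 6 lay above 0, with a median ratio of 1.07. S100a8, a calgranulin of neutrophils and monocytes, was at 1.22 (1.21 to 1.24), while S100a6 beside S100a4 was at 1.07 (1.046 to 1.0985). Of the TREM family and its adaptors, 6 of 8 were tested and 4 lay above 0, with a median ratio of 1.07. The adaptor gene Hcst was at 1.33 (1.12 to 1.58), and Trem2 at 0.9003 (0.882 to 0.919).

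Of 15 genes of the renin-angiotensin system 5 were tested, with a median ratio of 1.01, and Mme was listed at 0 in both libraries. Of 18 coagulation and fibrinolysis genes 9 were tested, 5 of them above 0, with a median ratio of 1.02. The cofactor gene F5, whose exons overlap another gene, was at 1.35 (1.27 to 1.43) and Plau, the urokinase gene, at 0.799 (0.777 to 0.823). Tgm2, a transglutaminase related to F13a1 whose exons also overlap another gene, was at 0.967 (0.945 to 0.9895). Of 18 hyaluronan and matrix genes 4 were tested, 2 above and 2 below 0, and the hyaluronan receptor gene Cd44 was at 0.914 (0.8999 to 0.928). The medians of the renin-angiotensin and hyaluronan lists lay within 0.05 of 0 and changed sign among the settings tried.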

How the data were processed

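Messenger RNA of 2 libraries was measured. For 15576 genes the authors deposited FPKM, which scales reads by gene length and library size. GRCm38 was the build, and the tools included HTSeq 0.6.0 and STAR 2.5.0c, per the submitters' processing notes, which assign them no role. Which gene length, strand setting and gene filter the authors used is not stated in the sources used here. Samples were grouped by treatment label and columns matched by name.

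Coordinates (1-based), lengths and exon overlaps came from GENCODE vM21, which held 15548 of the identifiers. Whole reads were rebuilt with the summed length of a gene's transcripts: 11371 of 11794 genes under 5000 reads (96.4%) came out within 0.05 of whole numbers in both libraries. Differences were taken in log2(FPKM + 1) for the 9656 genes whose mean FPKM reached 1, with a limit of 1.2-fold and no test. Intervals are at 95% and cover counting error only, since each group had 1 library. PCR copies are not independent molecules, which the intervals do not take into account. The steps were tested on simulated data and run in Python 3.11.15 with scipy 1.17.1.

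The 8 genes and the 17 other lists were chosen with earlier results of these data known. Named genes are the 8, 8 genes fixed by name, and, per list, the 2 genes farthest past 1.2-fold either way, or else the 2 most abundant. Cd14, Ly6e, Spi1, Tgm2, Trem2, Treml1, Ly6a, Pltp, Cd81, S100a6, Cdh5 and Kdr were chosen after their values were seen. Some genes covered by these rules are not reported here. Pseudocounts, filters, scalings and lengths were varied.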

Additional observations from a re-analysis of the deposited data

How the results depend on the processing

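Across the pseudocounts, filters, scalings and lengths tried, Ly6c2, Plac8 and F13a1 stayed above 0 in 9 of 9 settings and Ly6c1 and Treml4 in 8 of 8. S100a4 and Vcan stayed below 0 in 9 of 9 and 8 of 8. These counts include the main setting, and most of them were fixed in advance. A pseudocount, filter or length cannot change the sign of a single gene's difference. Only rescaling each library and setting the median of the tested genes to 0 could do so. The summed Ly6C difference ranged from 0.22 to 0.25 (log2), that of Plac8 from 0.26 to 0.29. With pseudocount 5, 0 of the 8 genes reached 1.2-fold, in place of 1, because that pseudocount shrinks every difference. Ace passed the filter only without one, at -0.07, or after rescaling, at -0.25. Counts of all genes at least 1.2-fold apart, 204 higher and 69 lower, became 357 and 170 with pseudocount 0.1, 54 and 17 with pseudocount 5, 392 and 192 without a pseudocount, 323 and 139 without a filter, 66 and 18 where the mean FPKM had to reach 5, 728 and 488 after rescaling each library to 1e6, 311 and 138 with reads over the union of exons, and 133 and 30 without genes whose exons overlap. By construction, looser filters admit genes of lower FPKM, and smaller pseudocounts shrink the differences of such genes less. No paired analysis was possible because each group has 1 library, and no replicate could be left out. Depth limits Ace, Treml4 and Ly6c1 most, and single libraries limit all values.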
